A study of Mus musculus with 16 samples.

Results

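The genes described here are 8 transcripts of liver macrophages, namely the chains of complement C1q (C1qa, C1qb and C1qc) and 5 markers of Kupffer cells (Clec4f, Vsig4, Timd4, Marco and Cd5l). They were chosen by name, and they are 8 of the 13715 genes listed at 8 weeks and 8 of the 12922 listed after reversal. Frozen livers of 16 mice were measured by bulk RNA sequencing, in 4 groups of 4 mice that the labels number as separate animals. All mice had received carbon tetrachloride (CCl4), a hepatotoxin, by intraperitoneal injection for 8 weeks. Wild-type (Mfap2+/+) and knockout (Mfap2-/-) livers were sampled either at that point or after 8 weeks of CCl4 and a further 4 weeks of cessation, here called reversal. Mfap2 encodes a microfibril-associated glycoprotein of the extracellular matrix. The labels give no strain, age, sex, type of knockout allele or backcross, and livers without CCl4 were not analysed here.

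Kupffer cells are the resident macrophages of the liver and line its sinusoids, where they clear particles, aged blood cells and microbes from portal blood. In the mouse they are seeded before birth and largely renew themselves, and after injury they can be lost and replaced by monocyte-derived macrophages, which acquire Clec4f before Timd4. C1q is the recognition molecule of the classical complement pathway. It is built from A, B and C chains, binds immune complexes and dying cells, and in most tissues is made mainly by macrophages rather than by the parenchyma.

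The chains share a collagen-like stalk in which a triplet that opens with glycine repeats. These stretches are shown because they are the feature that joins the C1q chains to Marco, whose stalk has the same repeat. The longest uninterrupted run of triplets whose opening codon starts with GG, and so encodes glycine, was read from the coding exons of the GENCODE M21 transcripts of GRCm38 (mm10). Glycine codons are in capitals, and all of these sequences are on the minus strand. The C1qa run has 16 triplets and lies at chr4:136896565-136896708. The C1qb run has 29 triplets and spans chr4:136880700-136882217, introns included. The C1qc run has 16 triplets and lies at chr4:136890439-136890582.
C1qa: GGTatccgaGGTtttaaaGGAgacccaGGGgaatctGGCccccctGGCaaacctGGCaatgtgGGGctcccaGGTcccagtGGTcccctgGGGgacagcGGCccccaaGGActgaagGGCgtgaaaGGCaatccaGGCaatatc
C1qb: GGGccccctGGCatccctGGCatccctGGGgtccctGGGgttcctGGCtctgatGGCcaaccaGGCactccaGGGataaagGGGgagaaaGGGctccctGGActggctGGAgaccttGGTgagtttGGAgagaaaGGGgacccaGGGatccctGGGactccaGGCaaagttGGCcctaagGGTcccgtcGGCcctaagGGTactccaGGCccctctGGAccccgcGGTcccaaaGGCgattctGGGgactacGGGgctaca
C1qc: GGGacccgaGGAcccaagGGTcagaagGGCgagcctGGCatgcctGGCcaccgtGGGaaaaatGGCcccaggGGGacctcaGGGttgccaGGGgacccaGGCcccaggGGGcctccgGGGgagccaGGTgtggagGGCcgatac
Marco had the longest run of the 8 genes, with 81 triplets, whereas Clec4f, Cd5l and Timd4 had at most 2 and Vsig4 had 1. A run of at least 10 triplets was found in 98 of 21817 protein-coding genes (0.449%).

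The knockout labels were checked first. At 8 weeks Mfap2 was read at 0.902, 0.972, 1.40 and 3.07 FPKM (fragments scaled by transcript length and library total) in the wild-type livers of mice 1 to 4, and after reversal at 0.17, 0.21, 0.44 and 0.47. It was listed at 0 in all 8 knockout libraries (exact permutation test, 2-sided, p = 0.0286 at each stage, the smallest that 4 against 4 allows). The hepatocyte transcript Alb stood between 16731 and 46316 FPKM in all libraries, which fits the liver label. Several libraries stood apart. At 8 weeks, wild-type mice 1 and 2 had the highest Alb, at 46316 and 41550 FPKM. After reversal, wild-type mouse 1 and knockout mice 2 and 3 had 38.1%, 32.4% and 37.5% of their FPKM in mitochondrial genes, against 23.5% to 29.8% in the others, and knockout mouse 3 had the lowest Alb. Mitochondrial genes were not listed at 8 weeks, so that share could not be read for the 8-week libraries. Library totals were 428142 to 478062 FPKM at 8 weeks, and 878889 to 959698 FPKM in the reversal table. Read depth is unknown. The table headers name no unit, and whether the reversal values are FPKM or TPM over a filtered gene set cannot be told apart. Stage, table and library kit also cannot be told apart, so no level was tested between stages.

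No gene of the 8 passed the test between genotypes at either stage, although most stood higher in the knockout livers. The C1q chains differed alike and were 1.51-fold, 1.52-fold and 1.54-fold higher at 8 weeks for C1qa, C1qb and C1qc. After reversal the same ratios of group means were 1.48, 1.66 and 1.77. The scavenger protein gene Cd5l differed by a similar amount, while the receptor genes Clec4f, Vsig4, Timd4 and Marco did not share a direction. With limma over all genes tested and Benjamini-Hochberg adjustment, the number called at an adjusted p under 0.05 was 0 of 8 at both stages, in fits that called 1 of 11928 genes (0.00838%) at 8 weeks and 0 of 11032 (0%) after reversal. The gene called at 8 weeks was the collagenase gene Mmp13, named here after its value was seen. Over all genes, 1722 and 933 had an unadjusted p under 0.05. At an unadjusted p under 0.05, 4 of the 8 were higher at 8 weeks against 12.8% of all genes tested, and 3 of 8 after reversal against 6.95%. After median-ratio scaling these counts were 0 of 8 and 2 of 8, against 669 of 11928 and 424 of 11032 genes tested. After quantile normalization they were 3 of 8 and 2 of 8, against 708 and 383 of the same totals. Every knockout library lay above every wild-type library for 0 of 8 genes at 8 weeks (6.29% of all genes tested) and for 2 of 8, C1qb and C1qc, after reversal (3.62%). As deposited, the genes at an unadjusted p under 0.05 were Clec4f, C1qa, C1qb and C1qc at 8 weeks, and Cd5l, C1qb and C1qc after reversal. The C1q chains varied together, with Pearson's r of at least 0.928 at 8 weeks and 0.872 after reversal. They are thus close to a single observation in these counts, and the shares of all genes are no test of the 8.

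Differences are knockout minus wild type on log2(FPKM + 1), and on that scale the whole table leaned towards the knockout. The median gene differed by 0.23 at 8 weeks and by 0.10 after reversal, with 82.6% and 70.7% of genes above 0. After median-ratio scaling these shares were 46.9% and 47.8%. The median over the 8 genes was 0.52 at 8 weeks and 0.47 after reversal as deposited, and 0.21 and 0.33 after median-ratio scaling. The count of genes higher in the knockout was 6 of 8 and 7 of 8 as deposited, and 5 of 8 and 6 of 8 after that scaling. Without the libraries that stood apart it was 8 of 8 at each stage, where 57.0% and 67.2% of all genes were higher. That left 2 wild-type and 4 knockout mice at 8 weeks, and 3 and 2 after reversal. The libraries left out held the highest Timd4 and Marco at 8 weeks, and the highest and lowest Clec4f after reversal. The count of 8 of 8 thus followed largely from the removal. Knockout mouse 3 at 8 weeks, with the lowest Alb of that stage (16973 FPKM), was kept.

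**Figure D1:**
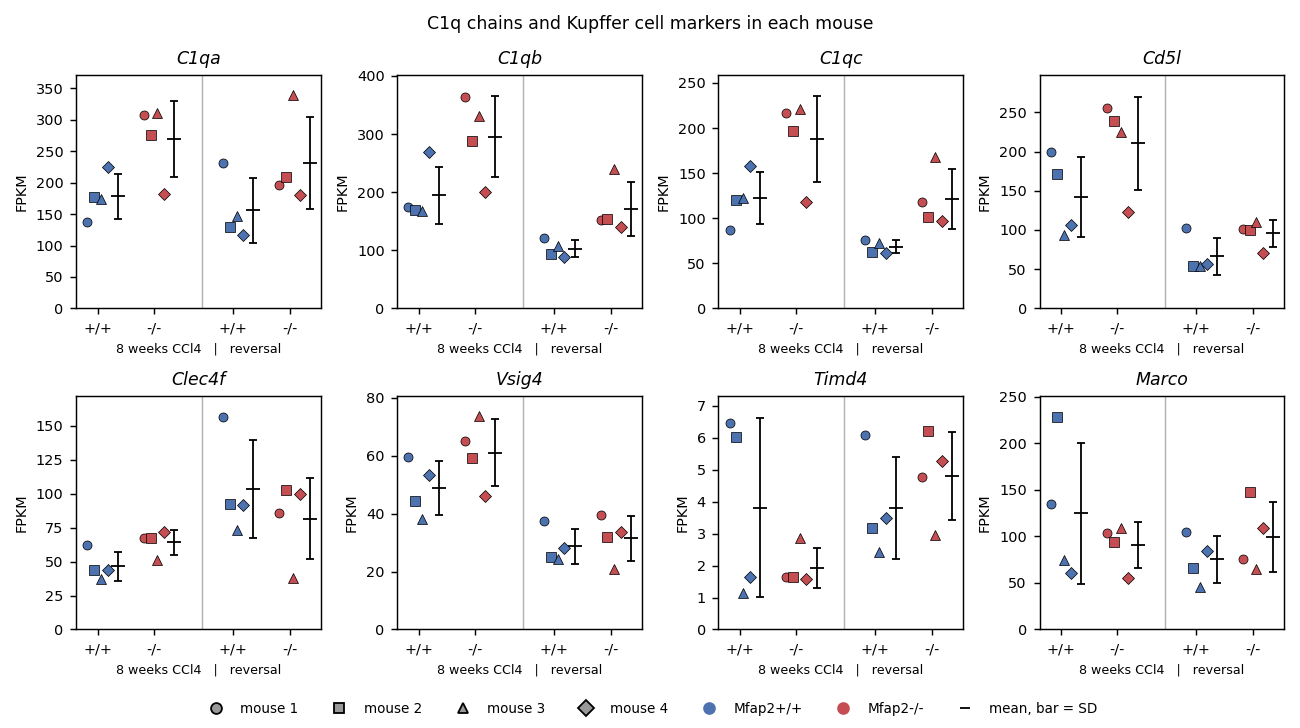
FPKM of each gene (vertical axis, starting at 0) in each mouse, by genotype and stage, with the marker shape giving the mouse number and the black bar the mean and SD of 4 mice. For C1qb and C1qc after reversal, all 4 knockout mice lie above all 4 wild-type mice, and for Timd4 and Marco at 8 weeks, wild-type mice 1 and 2 lie above the other libraries.

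C1qa (ENSMUSG00000036887, chr4:136895917-136898803, minus strand) encodes the A chain. At 8 weeks it was read at 138, 177, 174 and 224.5 FPKM in the wild-type livers of mice 1 to 4 and at 307, 276, 312 and 182 FPKM in knockout mice 1 to 4. Knockout mice 1 to 3 were above every wild-type mouse, and knockout mouse 4 was within the wild-type range. Wild-type livers averaged 178 ± 35.4 FPKM and knockout livers 269 ± 60.3 FPKM (SD, n = 4). On the log2 scale they differed by 0.58 ± 0.25 (SE), with a limma adjusted p of 0.302. After reversal the values were 231, 129, 148 and 117 FPKM in wild-type and 196, 209.6, 339 and 181 FPKM in knockout mice. Wild-type mouse 1 was the one that reached into the knockout range, and knockout mouse 3 was the highest of all. The difference was 0.57 ± 0.26 (adjusted p = 0.594).

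C1qb (ENSMUSG00000036905, chr4:136880129-136886187, minus strand) encodes the B chain. At 8 weeks wild-type mice stood at 174, 169.6, 168 and 268 FPKM, and knockout mice at 363, 288, 330.5 and 201 FPKM. Wild-type mouse 4 was set apart from the other three wild-type libraries and lay above knockout mouse 4. The difference was 0.59 ± 0.25 (adjusted p = 0.306). After reversal wild-type mice had 121, 93.9, 108 and 88.6 FPKM and knockout mice 152, 153, 239 and 139.7 FPKM. The groups did not overlap, and the difference was 0.71 ± 0.20 with a 95% interval of 0.26 to 1.15 (adjusted p = 0.499), the rank 110 of 11032 genes by p.

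C1qc (ENSMUSG00000036896, chr4:136889804-136893065, minus strand) encodes the C chain. At 8 weeks it was read at 87.4, 120.5, 123 and 158 FPKM in wild-type and at 217, 196, 221 and 118 FPKM in knockout mice. As for the other chains, knockout mouse 4 was the library within the wild-type range (difference 0.61 ± 0.26, adjusted p = 0.306). After reversal the values were 76.4, 63.05, 72.7 and 61.5 FPKM in wild-type and 119, 101, 168 and 96.7 FPKM in knockout mice. These groups did not overlap either, and the difference was 0.79 ± 0.20, with a 95% interval of 0.35 to 1.22 (adjusted p = 0.499) and rank 47 by p. In bulk RNA, more C1q transcript in a library can reflect more C1q-producing cells or more RNA per cell, and these cannot be told apart here.

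No C1q chain was called at 8 weeks with all 8 libraries, and this depended on wild-type mouse 4, the wild-type library with the highest value of every chain. Without it the differences were 0.70 for C1qa, 0.76 for C1qb and 0.74 for C1qc, with adjusted p of 0.0483, 0.0332 and 0.0438. That fit called 1465 of 11928 genes (12.3%). Over the alternatives run, the adjusted p of C1qb at 8 weeks ranged from 0.0332 to 1.00 and that of C1qc after reversal from 0.31 to 0.999. Median-ratio scaling reduced the differences at 8 weeks to 0.26, 0.27 and 0.29 for the A, B and C chains, and those after reversal to 0.42, 0.56 and 0.64.

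**Figure D2:**
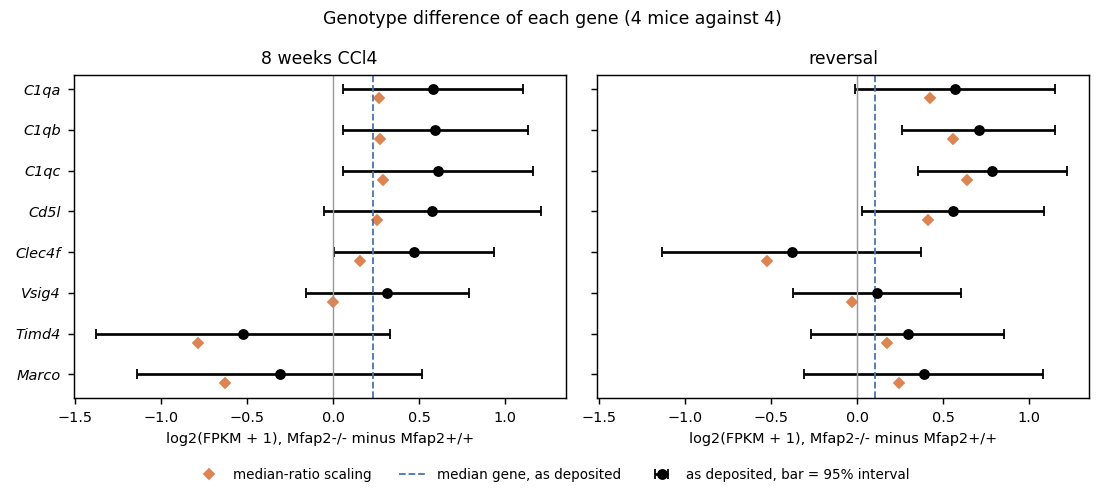
Log2 difference of each gene between knockout and wild type (horizontal axis, black point with its 95% interval from limma, 4 mice against 4), with the value after median-ratio scaling (orange) and the median of all genes tested (dashed line, 0.23 and 0.10). The C1q chains, Cd5l and Vsig4 lie to the right of the dashed line at both stages, Vsig4 by only 0.08 and 0.01. Clec4f lies to its right at 8 weeks and below 0 after reversal. Timd4 and Marco lie below 0 at 8 weeks and to its right after reversal.

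The chains kept similar proportions over the libraries of a stage. The ratio of C1qc to C1qb lay between 0.501 and 0.731 over the 8 libraries at 8 weeks, and over the reversal libraries between 0.633 and 0.780. C1qa to C1qb lay between 0.792 and 1.04 at 8 weeks. It ran from 1.29 to 1.92 in the reversal table, where wild-type mouse 1 gave the highest value, 1.92. Across the 8 libraries of a stage, Pearson's r between chains on log2 values was 0.928 to 0.996 at 8 weeks and 0.872 to 0.986 after reversal. These correlations share library and scaling and are a description only. The genes whose pattern was most like the mean of the C1q chains, by the smaller of r over the 8 libraries of each stage, were Gltp, Tyrobp, Il10rb, Cd300c2 and Cyba, with 0.967 to 0.990 among 5292 genes compared. Gltp encodes a glycolipid transfer protein, Tyrobp the signalling adaptor DAP12 of myeloid receptors, and Cyba a subunit of the phagocyte oxidase.

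C1q was also set against Csf1r, the colony-stimulating factor receptor gene that macrophages share. At 8 weeks the ratio of C1qb to Csf1r within a mouse was 6.47 to 7.18 in wild-type and 6.87 to 7.42 in knockout livers, although C1qb itself spanned 168 to 363 FPKM. After reversal it was 5.72 to 9.81 in wild-type and 8.05 to 10.05 in knockout livers. The groups overlapped in both cases. The other chains kept a looser ratio to Csf1r at 8 weeks. For C1qa it was 5.58 to 7.00 in wild-type and 6.18 to 7.00 in knockout livers. For C1qc it was 3.53 to 4.95 and 4.28 to 4.96. The SD of the log2 ratio in wild-type livers was 0.067 for C1qb, 0.150 for C1qa and 0.210 for C1qc. Against Adgre1, the gene of the macrophage marker F4/80, C1qb stood at 12.4 to 18.9 in wild-type and 11.6 to 15.3 in knockout livers at 8 weeks. After reversal that ratio was 30.5 to 50.5 and 34.4 to 51.2.

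**Figure D3:**
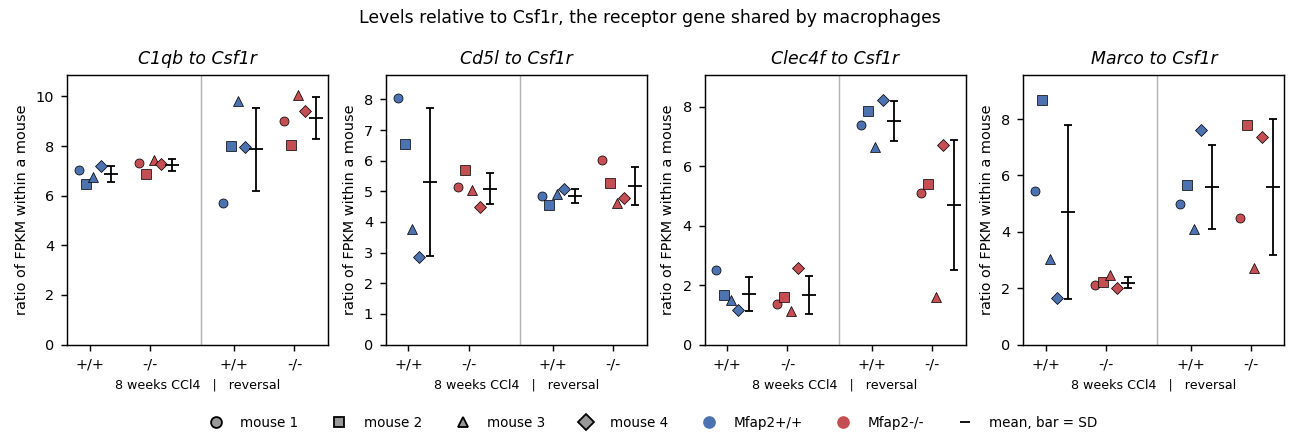
Ratio of the FPKM of C1qb, Cd5l, Clec4f and Marco to that of Csf1r within each mouse (vertical axis, starting at 0), by genotype and stage, with mean and SD of 4 mice. The C1qb ratio stays between 6.47 and 7.42 in all 8 libraries at 8 weeks, the Marco ratio is highest in wild-type mice 1 and 2 at that stage, and the Clec4f ratio is lowest after reversal in knockout mouse 3.

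Cd5l (ENSMUSG00000015854, chr3:87357881-87371073, plus strand) encodes a secreted scavenger-receptor cysteine-rich protein, also called AIM, and is a target gene of liver X receptors in mouse macrophages. At 8 weeks it was read at 199, 171, 93.5 and 106 FPKM in wild-type and at 255, 239, 224.5 and 123 FPKM in knockout mice. Knockout mouse 4 was again the library within the wild-type range, and the difference was 0.58 ± 0.30 (limma adjusted p = 0.389). After reversal it was 102, 53.5, 54.0 and 56.7 FPKM in wild-type and 102, 100.4, 109.8 and 71.1 FPKM in knockout mice. All wild-type mice but mouse 1 lay below every knockout mouse, and the difference was 0.56 ± 0.24 (adjusted p = 0.578). Relative to Csf1r, Cd5l after reversal lay at 4.55 to 5.08 in wild-type and 4.61 to 6.02 in knockout livers.

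Clec4f (ENSMUSG00000014542, chr6:83644542-83656187, minus strand) encodes a C-type lectin that in the mouse is close to restricted to Kupffer cells. At 8 weeks wild-type mice had 61.9, 43.8, 37.0 and 43.4 FPKM, and knockout mice 67.1, 67.0, 50.8 and 71.4 FPKM. Knockout mouse 3 alone lay within the wild-type range, and the difference was 0.47 ± 0.22 (limma adjusted p = 0.343). After reversal the order was the other way round, with 156, 92.5, 73.3 and 91.6 FPKM in wild-type and 86.0, 103, 37.8 and 99.7 FPKM in knockout mice. The highest value came from wild-type mouse 1 and the lowest from knockout mouse 3, while the remaining 6 mice lay between 73.3 and 103 FPKM. The difference was -0.38 ± 0.34 (adjusted p = 0.803), and it was 0.12 without the reversal libraries that stood apart.

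Clec4f and C1q thus stood on opposite sides of 0 after reversal. The difference between the stages' genotype differences was -0.85 ± 0.40 for Clec4f, with a 95% interval of -1.69 to -0.01 and an adjusted p of 1.00 in one limma fit over all 16 libraries. That interaction was called for 0 of the 8 genes and for 0 of 10647 genes tested (0%). At an unadjusted p under 0.05 it stood for 1 of 8, Clec4f, against 2.76% of all genes. Without the reversal libraries that stood apart, the Clec4f interaction was -0.35 ± 0.30. For the C1q chains the same quantity was -0.01 ± 0.36 (A), 0.11 ± 0.33 (B) and 0.18 ± 0.33 (C), and for Cd5l it was -0.02 ± 0.40. For Timd4, Marco and Vsig4 it was 0.82 ± 0.49, 0.70 ± 0.52 and -0.20 ± 0.31.

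Relative to Csf1r, Clec4f stood after reversal at 6.65 to 8.22 in wild-type livers and at 1.59 to 6.73 in knockout livers, where knockout mouse 3 gave 1.59. At 8 weeks those ratios were 1.16 to 2.499 and 1.14 to 2.59. Pearson's r of Clec4f with the C1q chains was 0.146 to 0.365 over the 8 libraries at 8 weeks and -0.620 to -0.378 after reversal. The genes most like Clec4f over both stages were Psme1, Folr2, Leap2, Acot3 and Nsmaf, with a smaller r of 0.518 to 0.633 among 5294 genes compared. Folr2 encodes a folate receptor carried by resident macrophages, and Leap2 a peptide made by hepatocytes. By this measure no gene compared tracked Clec4f as closely as Tyrobp tracked C1q.

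Vsig4 (ENSMUSG00000044206, chrX:96247203-96293438, minus strand) encodes CRIg, a receptor that binds fragments of complement C3 on particles in the blood. In wild-type mice its 8-week values were 59.7, 44.5, 38.3 and 53.2 FPKM, and in knockout mice 65.1, 59.4, 73.6 and 46.2 FPKM. The groups overlapped, with a difference of 0.31 ± 0.22 (limma adjusted p = 0.492) as deposited and -0.0016 after median-ratio scaling. After reversal the values were 37.6, 25.0, 24.4 and 28.0 FPKM in wild-type and 39.6, 31.95, 21.0 and 33.65 FPKM in knockout mice. The lowest library was knockout mouse 3, and the difference was 0.11 ± 0.22 (adjusted p = 0.929). Set against Adgre1 at 8 weeks, Vsig4 was at 3.43 to 4.96 in wild-type and at 2.58 to 3.17 in knockout livers. That was the one of the 46 ratios computed in which the groups did not overlap.

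Timd4 (ENSMUSG00000055546, chr11:46810800-46844332, plus strand) encodes a phosphatidylserine receptor that marks long-resident Kupffer cells. At 8 weeks wild-type mice had 6.46, 6.02, 1.14 and 1.65 FPKM, and knockout mice 1.65, 1.63, 2.86 and 1.57 FPKM. Wild-type mice 1 and 2 stood well above the other 6 livers, which lay between 1.14 and 2.86 FPKM. The difference was -0.53 ± 0.39 (limma adjusted p = 0.510), and 0.27 without those wild-type mice. After reversal Timd4 was at 6.10, 3.18, 2.44 and 3.48 FPKM in wild-type and at 4.77, 6.22, 2.96 and 5.26 FPKM in knockout mice. These ranges overlapped, with a difference of 0.29 ± 0.25 (adjusted p = 0.796).

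Marco (ENSMUSG00000026390, chr1:120474538-120505024, minus strand) encodes a class A scavenger receptor for microbes and particles. At 8 weeks it was at 135, 228, 74.8 and 61.1 FPKM in wild-type and at 104, 93.5, 109 and 55.4 FPKM in knockout mice. As for Timd4, wild-type mice 1 and 2 were the highest of the 8 libraries, and knockout mice 1 to 3 lay between them and the other wild-type mice. The difference was -0.31 ± 0.38 (limma adjusted p = 0.656), and 0.37 without those mice. After reversal the values were 105, 66.3, 45.2 and 84.8 FPKM in wild-type and 75.75, 148, 64.6 and 109 FPKM in knockout mice, with overlapping groups and a difference of 0.39 ± 0.31 (adjusted p = 0.777). Marco and Timd4 varied together, with Pearson's r of 0.828 over the 8 libraries at 8 weeks and 0.911 after reversal. Wild-type mice 1 and 2 at 8 weeks were also the livers with the highest summed hepatocyte markers, 61215 and 61473 FPKM against 24173 to 43465 in the others, and the part of this in the Timd4 and Marco values was not tested.

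Other Kupffer cell genes were counted as a group. Of 16 tested at 8 weeks, 14 were higher in the knockout with a median log2 difference of 0.31 (0.02 after median-ratio scaling), and of 15 tested after reversal 14 were higher with a median of 0.36 (0.22). After median-ratio scaling the counts were 9 of 16 and 10 of 15, and none was called. Folr2 stood at 23.1 ± 6.05 and 38.5 ± 9.90 FPKM in wild-type and knockout livers at 8 weeks (adjusted p = 0.226) and at 13.9 ± 1.96 and 17.2 ± 3.67 after reversal. Slc11a1, a divalent metal transporter of phagosomes, stood at 16.5 ± 5.64 and 32.3 ± 9.34 FPKM at 8 weeks (adjusted p = 0.159). Hmox1, the haem-degrading enzyme, was read after reversal at 22.4, 22.7, 22.45 and 19.15 FPKM in wild-type and at 53.0, 32.7, 71.4 and 28.7 FPKM in knockout livers. Those groups did not overlap (difference 0.97 ± 0.27, limma adjusted p = 0.499), but Hmox1 was picked from its list for a small p. Of all genes, 3.62% had every knockout library above every wild-type library after reversal. Among regulators of the Kupffer cell lineage, Nr1h3, which encodes LXR alpha, differed by 0.20 and 0.07 on the log2 scale at 8 weeks and after reversal. Id3 differed by 0.15 and 0.42, and Spic by 0.44 and 0.38. The median gene differed by 0.23 and 0.10. After median-ratio scaling the differences were -0.11 and -0.07 for Nr1h3, -0.17 and 0.28 for Id3, and 0.17 and 0.25 for Spic.

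Genes of all macrophages were higher in the knockout for 11 of 11 at both stages, with medians of 0.84 and 0.76, and for 11 of 11 after either rescaling. None was called. Their summed level was 729 to 1336 FPKM in wild-type and 1122 to 2331 in knockout livers at 8 weeks, and 454 to 710 and 871 to 1935 after reversal, where the groups did not overlap. Lyz2, the macrophage lysozyme, stood after reversal at 208 ± 43.6 and 482 ± 154 FPKM (difference 1.17 ± 0.25, limma adjusted p = 0.327), and Cd68, a lysosomal glycoprotein, at 25.7 ± 4.32 and 57.0 ± 27.2 FPKM. Adgre1 stood at 8 weeks at 11.97 ± 3.33 and 22.1 ± 5.81 FPKM (adjusted p = 0.171) and Csf1r at 28.3 ± 6.09 and 40.9 ± 9.47 FPKM. The C1q differences at 8 weeks, 0.58 to 0.61, were below the median of this list.

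Markers of recruited cells stood higher in the knockout beside C1q. Recruited monocyte genes were higher for 9 of 9 tested at 8 weeks and 7 of 7 after reversal, with medians of 1.09 and 0.70. Their summed level was 59.4 to 135 FPKM in wild-type and 129 to 283 in knockout livers at 8 weeks, and 30.9 to 52.9 and 58.2 to 162 after reversal. Ly6c2, a surface marker of inflammatory monocytes, stood at 7.40 ± 2.76 and 29.5 ± 18.5 FPKM at 8 weeks (limma adjusted p = 0.107), and Ccr2, the chemokine receptor that brings them into tissue, at 2.94 ± 0.582 and 7.82 ± 4.44. Genes of scar-associated macrophages were higher for 6 of 6 at both stages, with medians of 0.83 and 1.22. Trem2, a lipid receptor of such macrophages, stood at 29.6 ± 11.0 and 49.5 ± 15.0 FPKM at 8 weeks. Ly6c2 and Ccr2 were above 0 in every library, with lowest values of 0.58 and 0.80 FPKM in wild-type livers after reversal. Of the 9 recruited monocyte genes listed, 7 reached the mean of 0.5 FPKM needed for testing at that stage. No gene of either list was called, and the part of recruited cells in the C1q difference was not tested.

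Knockout mouse 3 after reversal had the highest C1qa, C1qb and C1qc and the lowest Clec4f and Vsig4 of the 8 livers. Its Timd4 and Marco, at 2.96 and 64.6 FPKM, were within the wild-type range but the lowest of the knockout mice. Relative to Csf1r, its Timd4 and Marco stood at 0.124 and 2.72, below the wild-type ranges of 0.222 to 0.312 and 4.11 to 7.60. In the same library Gpnmb, a glycoprotein of scar-associated macrophages, stood at 79.6 FPKM against 11.8 to 18.9 in the other knockout mice, and Trem2 at 65.5 against 12.75 to 14.1. Its summed hepatocyte markers were the lowest, at 34458 FPKM against 50590 to 74479 in the other 7 livers, and its summed recruited monocyte genes the highest. Whether these features of the library bear on its C1q and Clec4f values was not tested.

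Hepatocyte markers were lower in the knockout for 6 of 6 genes at both stages, with medians of -0.65 and -0.13, and their sums were 36842 to 61473 FPKM in wild-type and 24173 to 38339 in knockout livers at 8 weeks. Without the libraries that stood apart, 1 of 6 was higher at 8 weeks and 3 of 6 after reversal. Sinusoidal endothelial markers were higher for 7 of 7 and 6 of 7, and stellate cell markers for 6 of 6 at both stages (7, 5, 5 and 5 after median-ratio scaling, in that order). FPKM are shares of a library total, and the part of the hepatocyte share in the differences above was not tested. Neutrophil, B cell, T and NK cell, dendritic cell and cholangiocyte markers had 1 to 4 tested genes each and none was called.

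Stellate, endothelial and hepatocyte neighbours supply signals that maintain the Kupffer cell niche. The list of niche genes also includes the receptor gene Acvrl1. Niche genes were higher for 10 of 10 at 8 weeks and 7 of 8 after reversal, with medians of 0.46 and 0.28. After median-ratio scaling the counts were 8 of 10 and 7 of 8. Acvrl1 stood at 2.51 ± 0.241 and 6.51 ± 2.99 FPKM at 8 weeks (limma adjusted p = 0.132). Tgfb1, which encodes a growth factor required for the Kupffer cell programme, stood at 11.9 ± 2.56 and 23.3 ± 6.29 FPKM at 8 weeks (limma adjusted p = 0.135). Its reversal values were 3.10 ± 0.578 and 7.00 ± 1.84 FPKM (limma adjusted p = 0.298), with no overlap of the groups. Tgfb1 was picked from its list for a small p, and 3.62% of all genes were separated in that direction after reversal. Csf1, the ligand of the Csf1r receptor, stood at 3.85 ± 1.44 and 7.42 ± 3.15 FPKM at 8 weeks and at 5.70 ± 1.846 and 8.83 ± 2.18 after reversal. None of the niche genes was called.

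The list of C1q partners holds components of the classical pathway and also the receptor genes Lair1 and Cd93. Its directions were mixed at 8 weeks and mostly higher after reversal as deposited, where 70.7% of all genes were higher. Of 11 tested, 4 were higher at 8 weeks and 9 after reversal, with medians of -0.08 and 0.09, below or near the median gene, and 2 and 4 were higher after median-ratio scaling. C1ra, the protease that C1q activates and that hepatocytes make, stood at 61.6 ± 10.9 and 51.4 ± 8.97 FPKM at 8 weeks (limma adjusted p = 0.554). C3, the central component, stood at 1432 ± 262 and 1748 ± 160 FPKM after reversal (difference 0.30 ± 0.17). The genes with the smallest p at 8 weeks were Lair1, an inhibitory receptor for collagen and C1q on leukocytes, at 4.28 ± 0.663 and 9.49 ± 3.04 FPKM, and Cd93, at 2.80 ± 1.25 and 6.53 ± 3.62. Genes of efferocytosis and scavenging, the uptake of dying cells and modified lipids, were higher for 15 of 16 at both stages with medians of 0.42 and 0.27 (13 and 15 of 16 after median-ratio scaling). Among them Msr1, a scavenger receptor, stood at 14.0 ± 3.39 and 30.2 ± 9.85 FPKM at 8 weeks (adjusted p = 0.107). Liver X receptor targets other than Cd5l were higher for 4 of 5 and 3 of 5, with medians of 0.38 and 0.02 (3 of 5 and 2 of 5 after median-ratio scaling). Abcg1, a cholesterol exporter, stood at 3.95 ± 0.420 and 7.66 ± 2.71 FPKM at 8 weeks, and Lpcat3, a phospholipid-remodelling enzyme, at 50.1 ± 10.6 and 40.2 ± 9.20 FPKM after reversal. None of these genes was called.

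The C1q genes lie close together on chromosome 4, 4.11 to 4.12 Mb from Mfap2 (chr4:141010418-141015984, plus strand), so chromosome segments that flank the knocked-out gene could carry alleles of another strain in knockout mice. The flanking genes were therefore described beside the rest of the genome. Of 191 tested genes within 10 Mb of Mfap2 at 8 weeks, 83.8% were higher in the knockout, 16.2% had an unadjusted p under 0.05 and none was called. The rest of chromosome 4 gave 81.2% and 9.82%, and all genes 82.6% and 14.4%. After reversal the 182 genes within 10 Mb gave 69.8% and 12.1%, the rest of chromosome 4 gave 68.6% and 8.0%, and all genes 70.7% and 8.46%. With the C1q genes left out, the shares at an unadjusted p under 0.05 were 14.9% at 8 weeks and 11.2% after reversal. The median difference of the flanking genes was 0.27 and 0.10, against 0.23 and 0.10 for all genes. Within 5 Mb of Mfap2, a window that includes the C1q genes, 14 of 70 genes had an unadjusted p under 0.05 at 8 weeks. After reversal 9 of 69 did, and both shares were above those of all genes. After median-ratio scaling the 8-week share within 5 Mb was 8.57%, below the 10.6% of all genes. The reversal share stayed above the 7.17% of all genes.

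**Figure D4:**
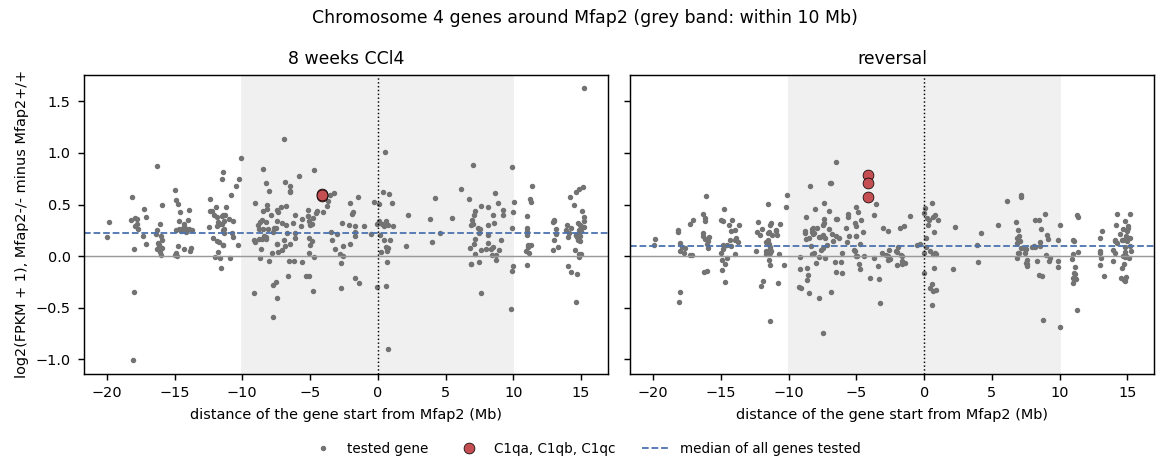
Log2 difference between knockout and wild type (vertical axis) of each tested chromosome 4 gene within 20 Mb of Mfap2, by the distance of its start from that of Mfap2 in Mb (horizontal axis), with the C1q genes in red, the median of all genes tested dashed and the 10 Mb window in grey. The C1q genes lie above the median line at both stages, among flanking genes that spread on either side of it.

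Among the flanking genes with the smallest p at 8 weeks were Cd52, Fblim1, Themis2 and Fgr. Cd52, a surface glycoprotein gene of leukocytes, stood at 27.6 ± 7.78 and 64.0 ± 28.4 FPKM (difference 1.14 ± 0.31, limma adjusted p = 0.138). Fgr, a Src-family kinase gene of myeloid cells, stood at 3.37 ± 0.284 and 5.89 ± 1.48. After reversal they were Fbxo6, C1qc, C1qb, Sfn and Atp13a2. Fbxo6, which encodes a subunit of a ubiquitin ligase for glycoproteins and lies 7.14 Mb from Mfap2, was read at 21.25, 20.1, 24.8 and 23.6 FPKM in wild-type and at 35.1, 38.0, 34.95 and 29.6 FPKM in knockout livers. Atp13a2, a lysosomal transporter gene whose start lies 0.02 Mb from that of Mfap2, was read at 4.67, 3.97, 4.29 and 4.38 FPKM in wild-type and at 5.98, 5.90, 7.09 and 5.65 FPKM in knockout livers. Neither gene's groups overlapped, with differences of 0.60 ± 0.14 and 0.42 ± 0.13 (limma adjusted p = 0.468 and 0.512). Both genes were picked for a small p, so the separation of their groups is no separate support. After reversal, every knockout library lay above every wild-type library for 5.49% of the 182 genes within 10 Mb, and below for 1.65%. Those shares were 3.62% and 0.988% of all genes, and 7.25% and 2.9% of the genes within 5 Mb. At 8 weeks the order was the other way round, with every knockout library above for 2.86% of the genes within 5 Mb and 6.29% of all genes. The Kupffer cell regulator Id3 lies 4.87 Mb from Mfap2 as well. Flanking-strain alleles and the loss of Mfap2 cannot be told apart in these data, since such a segment would travel with the knockout allele.

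The promoters of C1qc and C1qb are shown because these genes lie side by side and their groups did not overlap after reversal. The sequences are from RefSeq on GRCm38.p6, 250 bases before to 50 after the annotated start, on the minus strand, at chr4:136892865-136893164 for C1qc and chr4:136886151-136886450 for C1qb. Of the 8 genes, 7 matched an entry in that table, and C1qa did not. The motif described is GAGGAAG, searched on both strands, a core bound by the myeloid factor PU.1, and its match on the opposite strand is in capitals.
C1qc: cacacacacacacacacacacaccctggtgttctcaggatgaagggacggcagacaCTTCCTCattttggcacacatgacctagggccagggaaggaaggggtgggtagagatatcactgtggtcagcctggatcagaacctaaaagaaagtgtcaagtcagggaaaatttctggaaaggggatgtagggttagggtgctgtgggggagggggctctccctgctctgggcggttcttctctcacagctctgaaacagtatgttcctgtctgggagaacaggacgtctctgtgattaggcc
C1qb: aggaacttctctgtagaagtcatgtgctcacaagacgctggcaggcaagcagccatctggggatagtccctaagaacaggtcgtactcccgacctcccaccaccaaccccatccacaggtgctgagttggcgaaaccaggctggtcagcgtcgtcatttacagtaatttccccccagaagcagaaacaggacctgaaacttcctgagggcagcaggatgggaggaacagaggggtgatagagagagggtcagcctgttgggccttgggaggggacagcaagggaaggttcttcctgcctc
The match in C1qc starts 194 bases before the RefSeq start, which lies downstream of the GENCODE start of C1qc given above, so its distance from the latter is shorter. Cd5l and Marco each had 1 match to GAGGAAG in their promoters, and C1qb, Clec4f, Vsig4 and Timd4 had no match to it. The motif was present in 13.6% of 32851 promoters of the same length. A match is a description of the letters in that window.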

How the data were processed

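The authors deposited 1 table of normalized values per stage, taken here as FPKM from the submitters' processing notes, which name HISAT, Cufflinks and mm10. Per the labels' protocols, NEBNext Ultra libraries were made at 8 weeks, and for reversal that kit or a VAHTS kit is named. The tables hold no counts, so no count test or counting interval was possible. A gene was tested where its mean in a table reached 0.5 FPKM, on log2(FPKM + 1), a scale that understates changes of low genes, within that table by limma 3.58.1 (R 4.3.3, statmod 1.5.0; trended, robust prior), 2-sided, with Benjamini-Hochberg adjustment over all genes tested and a threshold of 0.05. The interaction used 1 fit over 16 libraries. Medians of lists, ratios, correlations and flanking counts are descriptions without a test. The steps were tested on simulated data. Genes named beside the 8 were the 3 with the smallest p per list and stage, a fixed panel and the 5 flanking and 5 most like genes; some of them are not reported here. Members and lists were chosen with earlier results of these data known. Positions are from GENCODE M21 on GRCm38. Where Itgam was listed more than once, the row with the higher mean was used.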

Additional observations from a re-analysis of the deposited data

Results flagged for a closer look

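Gaps and ranges within a group were measured on log2(FPKM + 1), while the levels below are given in FPKM. In 4 of 32 groups of 4 mice (8 genes in 4 groups), 1 library's gap to its nearest neighbour was flagged. It took up more of the group's whole range than Dixon's 95% critical value allows. Chance flags about 1 in 20 groups. For Timd4 in knockout mice at 8 weeks the share was 0.918, because knockout mouse 3 stood at 2.86 FPKM and the others at 1.57 to 1.65. For C1qb in wild-type mice at 8 weeks it was 0.918, because mouse 4 stood at 268 FPKM and the others at 168 to 174. For Cd5l in wild-type mice after reversal it was 0.911, because mouse 1 stood at 102 FPKM and the others at 53.5 to 56.7. For C1qb in knockout mice after reversal it was 0.830, because mouse 3 stood at 239 FPKM and the others at 139.7 to 153.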

How the results depend on the processing

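No gene of the 8 was called under any alternative run (another pseudocount, no filter or a filter at 2 FPKM, rescaling, another prior, the replicate block, libraries left out), except C1qa, C1qb and C1qc at 8 weeks without wild-type mouse 4. Leaving out 1 mouse at a time, the number called ranged from 0 to 3 at 8 weeks. Same-numbered mice did not deviate together (r of -0.442 to 0.373 at 8 weeks and -0.656 to 0.367 after reversal), and with the replicate block 0 of the 8 genes were called in each comparison. Under median-ratio scaling Vsig4 changed sign to -0.0016 at 8 weeks and -0.027 after reversal, the interactions of Cd5l and C1qa became 0.15 and 0.16, and the share of flanking genes higher in the knockout moved from 83.8% to 53.4% at 8 weeks and from 69.8% to 50% after reversal. Without 8-week wild-type mice 1 and 2, Timd4 and Marco turned to 0.27 and 0.37 and the C1qa interaction to 0.16. Without the 3 reversal libraries that stood apart, Clec4f turned to 0.12, and the interactions of Vsig4, Cd5l and C1qb to 0.17, 0.051 and -0.0024. Leaving out single mice gave -0.59 to 0.039 for Marco at 8 weeks and -0.0029 to 0.29 for Vsig4 after reversal. For the interactions it gave -0.21 to 0.19 (C1qa), -0.061 to 0.22 (C1qb), -0.030 to 0.33 (C1qc) and -0.26 to 0.20 (Cd5l). The cause of these changes was not tested. Depth is unknown, and 4 mice a group limit the precision. The flanking shares without the C1q genes and the list counts without the libraries that stood apart were added after seeing the data.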
